A study of Mus musculus with 12 samples.

Results

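The chaperones and cochaperones of the endoplasmic reticulum (ER) lumen were followed across 4 groups of mice. They are BiP (Hspa5), Grp94 (Hsp90b1), calreticulin (Calr), calnexin (Canx), Dnajb9, Dnajb11, Dnajc3, Hyou1, Sdf2l1 and Armet, now named Manf. The members were taken by gene name from the annotation on the arrays. This gave 10 genes with 20 probes, of 27962 gene names and 41174 probes in all. Calnexin spans the ER membrane and holds its client-binding part in the lumen, whereas the other members are soluble proteins.

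A secreted protein enters the ER unfolded and is held by chaperones until it has folded. BiP binds exposed hydrophobic stretches and releases them in a cycle of ATP hydrolysis, which J-domain proteins such as Dnajb9, Dnajb11 and Dnajc3 start and the nucleotide exchange factor Hyou1 completes. Calreticulin and calnexin instead hold glycoproteins by their sugars, and Grp94 completes the folding of a narrower set of clients. When unfolded protein builds up, the sensors Ire1, Perk and Atf6 start the unfolded protein response (UPR), and genes of these chaperones are among its best known targets. Hypertrophic chondrocytes, the mature cells of growth plate cartilage, secrete collagen X in bulk.

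Hypertrophic zones were microdissected from 1 tibia of each mouse at 14 days of age, with 3 mice in each group. Schmid mice carried Col10a1 p.Asn617Lys, a knocked-in mutation of the mouse's own collagen X gene, and were homozygous according to the study's methods. Cog mice (ColXTgcog) carried a transgene for the misfolding cog form of thyroglobulin under the Col10a1 promoter, and mice with 1 or both copies were not told apart. Each mutant had wildtype mice of its own background, here called Schmid wildtype and Cog wildtype. Amplified RNA of each mouse was hybridized to its own single-colour whole genome array, so the 12 arrays stood for 12 mice. Values are normalized log2 intensities, on which a difference of 1 is a doubling, and levels of different probes were not set against each other.

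From 39.6 to 61.8% of spots were well above background per array. The share was 58.9 to 61.8% in Schmid and 39.6 to 48.1% in Cog, without overlap. It was 47.96 to 59.43% in Schmid wildtype and 41.05 to 58.51% in Cog wildtype. Schmid arrays filled 1 slide, Cog wildtype arrays another, Cog arrays shared a slide with Schmid wildtype replicate 3, and the other 2 Schmid wildtype arrays lay on their own, so slide and genotype cannot be told apart. The transgene was seen as labelled, since the brighter Tgn (thyroglobulin) probe had 17.86 ± 0.08 (SD, n = 3) in Cog against 9.96 ± 0.24 in Cog wildtype. Col10a1, with mean levels of 14.21 and 15.06 in Schmid and Cog against 14.23 and 14.06 in their wildtypes, was not called in either mutant (adjusted p = 0.99 in Schmid and 0.39 in Cog).

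RefSeq promoters (build GRCm38.p6) were matched by symbol to 8 of the 10 members, all but Hyou1 and Armet. They are shown because the ER stress response element (ERSE), the bipartite sequence through which Atf6 acts together with the CCAAT-binding factor NF-Y, is known from chaperone promoters. Its letters, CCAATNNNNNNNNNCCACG, were searched on both strands in the 250 bases before each start. They were found in 5 of the 8 promoters, against 0.113% of the 32851 promoters in the table. In the stretches that follow, written 5′ to 3′ along the strand of the gene, the fixed letters of each match are in capitals.
Hspa5, chr2:34772015-34772053, plus strand: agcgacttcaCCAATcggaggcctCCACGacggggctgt
Hsp90b1, chr10:86705523-86705666, minus strand: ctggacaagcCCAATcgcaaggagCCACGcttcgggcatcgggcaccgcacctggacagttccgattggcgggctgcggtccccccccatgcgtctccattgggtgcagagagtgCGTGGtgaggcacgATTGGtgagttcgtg
Calr, chr8:84847065-84847103, minus strand: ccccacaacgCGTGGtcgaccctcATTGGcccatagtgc
Canx, chr11:50325790-50325828, minus strand: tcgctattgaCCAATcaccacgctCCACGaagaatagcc
Dnajc3, chr14:118937817-118937855, plus strand: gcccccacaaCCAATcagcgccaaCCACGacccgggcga

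The Hspa5 stretch lay from 75 to 37 bases before the start, and the Canx stretch from 155 to 117 bases before it. Hsp90b1 alone among all promoters of the table held more than 1 match, one on each strand. The windows of Dnajb9, Dnajb11 and Sdf2l1 held no match, and allowing 1 mismatch in the fixed letters added none of them (1.32% of all promoters matched at that setting). A second ER stress element (ERSE-II, ATTGGNCCACG, in 0.0304% of all promoters) and the UPR element TGACGTGG (in 0.563%) were in none of the 8 windows. These 3 motifs share the letters CCACG or their reverse complement, and a match is a description of letters, not of a site in use. By the brightest probe of each gene, Dnajb9 and Sdf2l1, without the ERSE, had among the largest changes in both mutants. Dnajb11, also without it, had log2 changes of 1.08 in Schmid and 1.72 in Cog. Of those with it, Calr and Canx had the smallest changes, and Hspa5, Hsp90b1 and Dnajc3 lay between. The dimmer Hsp90b1 probe, however, had log2 changes of 3.10 in Schmid and 4.31 in Cog, above the 2.88 and 3.93 of Sdf2l1. Whether the motif goes with the size of the change was not tested.

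The chaperones were higher in both mutants. In Schmid, 14 of the 20 probes were higher by at least 2-fold at an adjusted p of 0.05 or less (limma), against 5.78% of all probes. In Cog, 16 of the 20 were higher by the same test, against 1.56% of all probes. The 14 probes called in Schmid were all among the 16 called in Cog, and no member probe was lower in either mutant. Taking the brightest probe of each gene, 8 of the 10 genes were higher in Schmid (5.8% of all gene names) and 10 of 10 in Cog (1.89%). The 2 genes not called in Schmid were the lectin chaperones Calr and Canx. The median log2 change of the 10 genes was 1.69 in Schmid and 2.02 in Cog, beside -0.09 and -0.00 over all gene names.

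The groups rarely overlapped. All 3 Schmid arrays lay above all 3 Schmid wildtype arrays at 19 of the 20 probes, which held for 19.3% of all probes with values on all arrays. All 3 Cog arrays lay above their wildtype at 17 of the 20, against 16.4%. The exceptions were the dimmer Calr probe in Schmid, and in Cog the 2 dimmer Canx probes and the dimmer Hyou1 probe. All probes but that Hyou1 probe were well above background on all 12 arrays, and none was saturated.

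**Figure D1:**
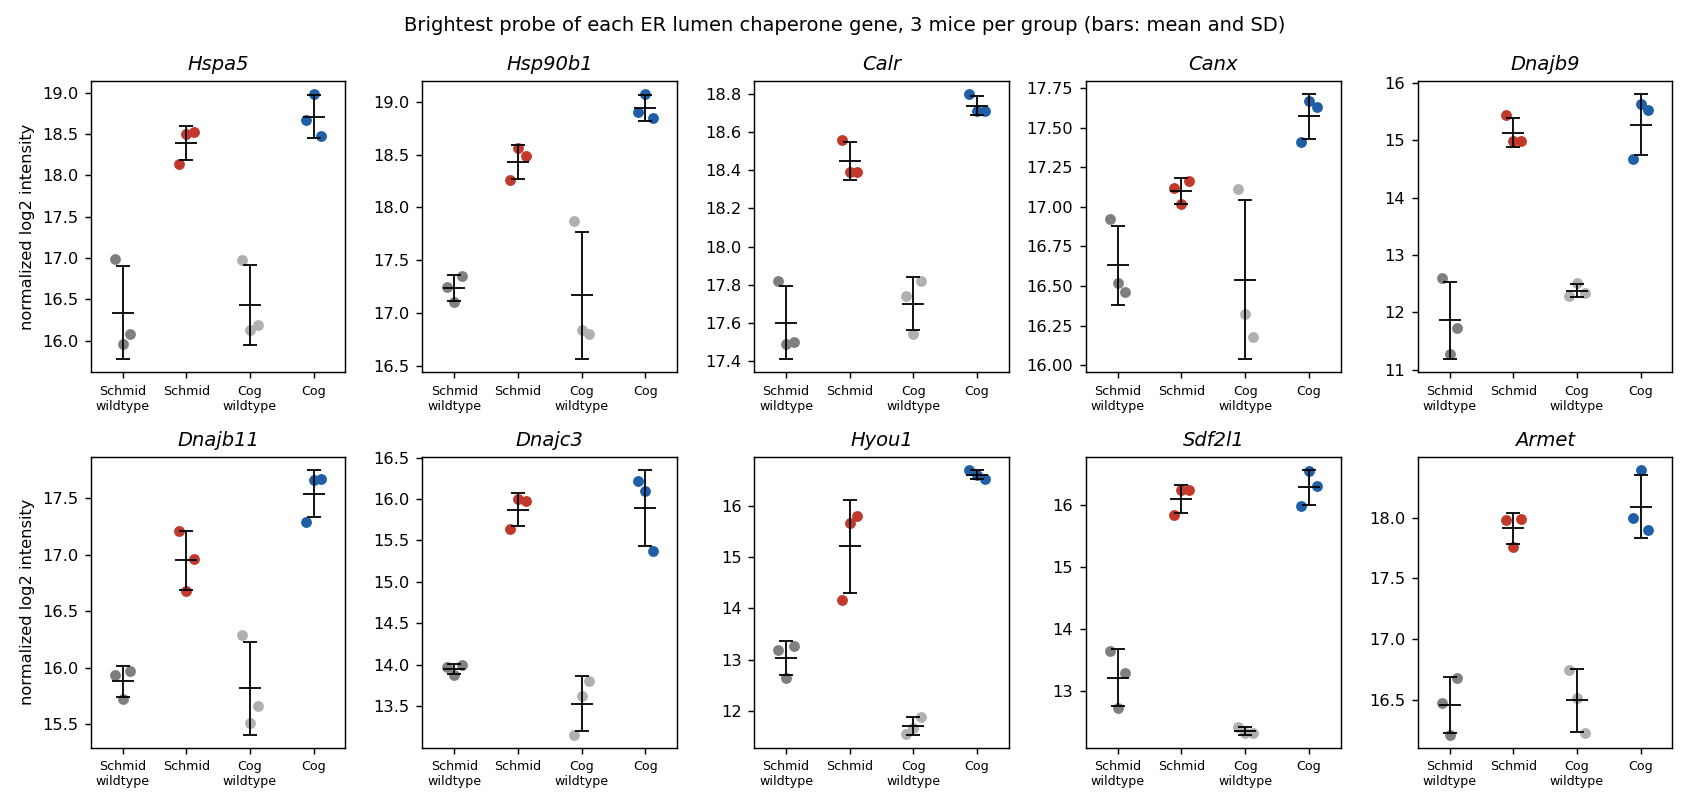
Normalized log2 intensity (vertical axes, each with its own range) of the brightest probe of each of the 10 genes, by group. Points are the 3 mice of a group and bars their mean and SD; the points of both mutants lie above those of their own wildtype at each gene, with the narrowest gap at Canx.

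BiP, the chaperone on which most of the other members act, had log2 intensities of 18.14, 18.50 and 18.52 in Schmid against 16.99, 15.96 and 16.08 in Schmid wildtype. It had 18.67, 18.98 and 18.47 in Cog against 16.98, 16.13 and 16.19 in Cog wildtype. In both backgrounds wildtype replicate 1 stood apart as the highest of its group and still lay below all mutant arrays. Hspa5 (NM_022310) was thus 4.12-fold higher in Schmid (log2 2.04, SE 0.30, adjusted p = 0.0014) and 4.84-fold higher in Cog (log2 2.27, SE 0.30, adjusted p = 0.0052). The changes did not differ detectably between the mutants (log2 difference -0.23, 95% interval -1.18 to 0.72).

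Of the J-domain proteins, Dnajb9, which also delivers misfolded clients for degradation and holds Ire1 in check, had the largest change in Schmid. Its brightest probe (NM_013760) had 15.43, 14.99 and 14.98 in Schmid against 12.59, 11.28 and 11.72 in Schmid wildtype. In Cog it had 14.67, 15.63 and 15.52 against 12.29, 12.51 and 12.33. The wildtype levels spread more widely in the Schmid background (SD 0.67) than in the Cog background (SD 0.12), and no mutant array overlapped them. Dnajb9 was 9.65-fold higher in Schmid (95% interval 5.79 to 16.1, adjusted p = 0.00025) and 7.44-fold higher in Cog (4.47 to 12.4, adjusted p = 0.0024). Its other 2 probes were also called in both mutants, at 7.7- and 6.89-fold in Schmid and 5.1- and 6.4-fold in Cog. Dnajb9 was the only gene of the 10 whose brightest probe changed less in Cog than in Schmid, by an amount within its interval (log2 difference 0.37, -0.67 to 1.42).

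Dnajb11 binds unfolded clients directly and hands them to BiP. It had 17.21, 16.68 and 16.96 in Schmid against 15.94, 15.72 and 15.97 in Schmid wildtype, and 17.29, 17.66 and 17.67 in Cog against 16.29, 15.51 and 15.66 in Cog wildtype. The lowest mutant array lay above the highest wildtype array in each background. Dnajb11 (NM_026400) was 2.11-fold higher in Schmid (log2 1.08, SE 0.21, adjusted p = 0.0061) and 3.29-fold higher in Cog (log2 1.72, SE 0.21, adjusted p = 0.004). The Schmid change stood close to the 2-fold limit and came below it without Schmid replicate 1 (log2 0.95) and, by less, without Schmid wildtype replicate 2.

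Dnajc3, first known as an inhibitor of the kinases Pkr and Perk, acts in the lumen as a cochaperone of BiP. Its brightest probe (NM_008929) had 15.64, 16.00 and 15.98 in Schmid against 13.97, 13.88 and 14.00 in Schmid wildtype. In Cog it had 16.22, 16.10 and 15.37 against 13.16, 13.62 and 13.80. The Schmid wildtype arrays were nearly level, and Cog replicate 3 was the lowest mutant array without reaching any wildtype array. Dnajc3 was 3.79-fold higher in Schmid (95% interval 2.66 to 5.41, adjusted p = 0.00051) and 5.16-fold higher in Cog (3.62 to 7.35, adjusted p = 0.0012). All 4 of its probes were called in both mutants, with the smallest changes (3.72-fold in Schmid, 3.26-fold in Cog) at the dimmest. The order of the probes by change was not the same in the mutants, since the third brightest had the largest change in Schmid (9.25-fold) and the second brightest in Cog (7.15-fold). The call of the third brightest in Cog was lost in 6 of 23 other analyses.

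Hyou1, the exchange factor that resets BiP, had the largest change of all members in Cog. Its brightest probe (NM_021395) had 16.70, 16.60 and 16.53 in Cog against 11.55, 11.67 and 11.89 in Cog wildtype. In Schmid it had 14.16, 15.67 and 15.81 against 13.18, 12.65 and 13.26 in Schmid wildtype. Schmid replicate 1 stood well below the other 2 Schmid arrays and remained above the wildtype, and the SD of 0.91 of the Schmid arrays was the widest of any group at the brightest probe of any member. Hyou1 was 29.9-fold higher in Cog (95% interval 17.1 to 52.5, adjusted p = 0.00025) and 4.55-fold higher in Schmid (2.59 to 7.97, adjusted p = 0.0025). A second probe (BC019785) stood well above background on 2 Schmid arrays, 1 Cog array and no wildtype array. It was not called in either mutant (adjusted p = 0.29 in Schmid and 0.26 in Cog), and so near background its fold is not given. With the scanner software's processed signal in place of normexp values this Hyou1 probe was called in Schmid (log2 2.12, adjusted p = 0.034 at a common 75th percentile, and 2.01, adjusted p = 0.039 after quantile normalization) and not in Cog. The folds of Hyou1 given here thus come from its brightest probe.

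Sdf2l1 forms a complex with Dnajb11 that keeps BiP clients from aggregating. It had 15.84, 16.24 and 16.24 in Schmid against 13.64, 12.73 and 13.29 in Schmid wildtype, and 15.99, 16.56 and 16.31 in Cog against 12.42, 12.33 and 12.32 in Cog wildtype. Both mutants reached nearly the same level, 16.10 ± 0.23 and 16.29 ± 0.28, from wildtype levels of 13.22 ± 0.46 and 12.36 ± 0.06 (SD, n = 3 each). Sdf2l1 (NM_022324) was 7.39-fold higher in Schmid (95% interval 5.21 to 10.5, adjusted p = 8e-05) and 15.3-fold higher in Cog (10.8 to 21.6, adjusted p = 4.4e-05). It had the smallest adjusted p of the 10 genes in both mutants.

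Grp94, the ER form of the Hsp90 family, was measured by 2 probes that agreed in direction and disagreed in size. The brighter (NM_011631, chr10:86249236-86249295 in build mm7) had 18.26, 18.56 and 18.49 in Schmid against 17.25, 17.11 and 17.35 in Schmid wildtype. In Cog it had 18.90, 19.07 and 18.85 against 17.87, 16.84 and 16.80. Cog wildtype replicate 1 stood well above the other 2 Cog wildtype arrays and below all Cog arrays. At this probe Hsp90b1 was 2.29-fold higher in Schmid (adjusted p = 0.0073) and 3.41-fold higher in Cog (adjusted p = 0.0063). The Schmid change fell under 2-fold when the scanner software's processed signal was used.

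The dimmer Hsp90b1 probe lies nearer the start of the gene, which runs along the minus strand (chr10:86256795-86256854, mm7), and is shown because the size of the Grp94 change depended on it. It had 18.17, 18.60 and 18.64 in Schmid against 15.71, 15.17 and 15.25 in Schmid wildtype, and 18.47, 18.33 and 16.87 in Cog against 13.38, 13.18 and 14.18 in Cog wildtype. Here it was Cog replicate 3 and Cog wildtype replicate 3 that stood apart, and neither bridged the gap between the groups. The change was 8.55-fold in Schmid (95% interval 4.59 to 16, adjusted p = 0.00078) and 19.8-fold in Cog (10.6 to 36.9, adjusted p = 0.001), and at this probe the calls held in all 23 other analyses of each mutant.
Hsp90b1, dimmer probe: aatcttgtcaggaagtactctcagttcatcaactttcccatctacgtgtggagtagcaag

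The lectin chaperones changed least. Calreticulin (brightest probe NM_007591) had 18.56, 18.39 and 18.39 in Schmid against 17.82, 17.49 and 17.50 in Schmid wildtype, and 18.80, 18.71 and 18.71 in Cog against 17.74, 17.54 and 17.82 in Cog wildtype. Replicates lay close together, and neither mutant overlapped its own wildtype. The change was 1.79-fold in Schmid (95% interval 1.48 to 2.17), which passed the test (adjusted p = 0.0014) and not the 2-fold limit, and 2.05-fold in Cog (1.7 to 2.49, adjusted p = 0.0033). The Cog call was lost in 6 of 23 other analyses. At the dimmer Calr probe the changes were 1.23- and 1.66-fold and were not called (adjusted p = 0.31 and 0.079).

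Calnexin (brightest probe NM_007597) had 17.12, 17.02 and 17.16 in Schmid against 16.92, 16.52 and 16.46 in Schmid wildtype. In Cog it had 17.41, 17.67 and 17.63 against 17.11, 16.32 and 16.18. Wildtype replicate 1 was again the highest wildtype array in both backgrounds. In the Schmid background it lay just below the lowest Schmid array (16.92 against 17.02). The Schmid change of 1.38-fold was not called (95% interval 0.978 to 1.95, adjusted p = 0.15), and the Cog change was 2.04-fold (1.44 to 2.88, adjusted p = 0.031). The Canx call in Cog was lost in 13 of 23 other analyses, the replicate block among them (adjusted p = 0.09), with log2 changes between 0.62 and 1.32. The other 2 Canx probes were not called in either mutant, at 1.73- and 1.76-fold in Schmid and 1.42- and 1.28-fold in Cog.

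Armet (NM_029103), a small protein that is retained in the ER through BiP and slows its exchange of nucleotide, had 17.98, 17.76 and 17.99 in Schmid against 16.48, 16.22 and 16.68 in Schmid wildtype. It had 18.00, 18.39 and 17.90 in Cog against 16.75, 16.52 and 16.23 in Cog wildtype. Mutant and wildtype arrays were widely separated in both backgrounds. Armet was 2.73-fold higher in Schmid (log2 1.45, SE 0.18, adjusted p = 0.00062) and 3.02-fold higher in Cog (log2 1.60, SE 0.18, adjusted p = 0.0024). The log2 difference between the changes was -0.14 (95% interval -0.71 to 0.43).

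**Figure D2:**
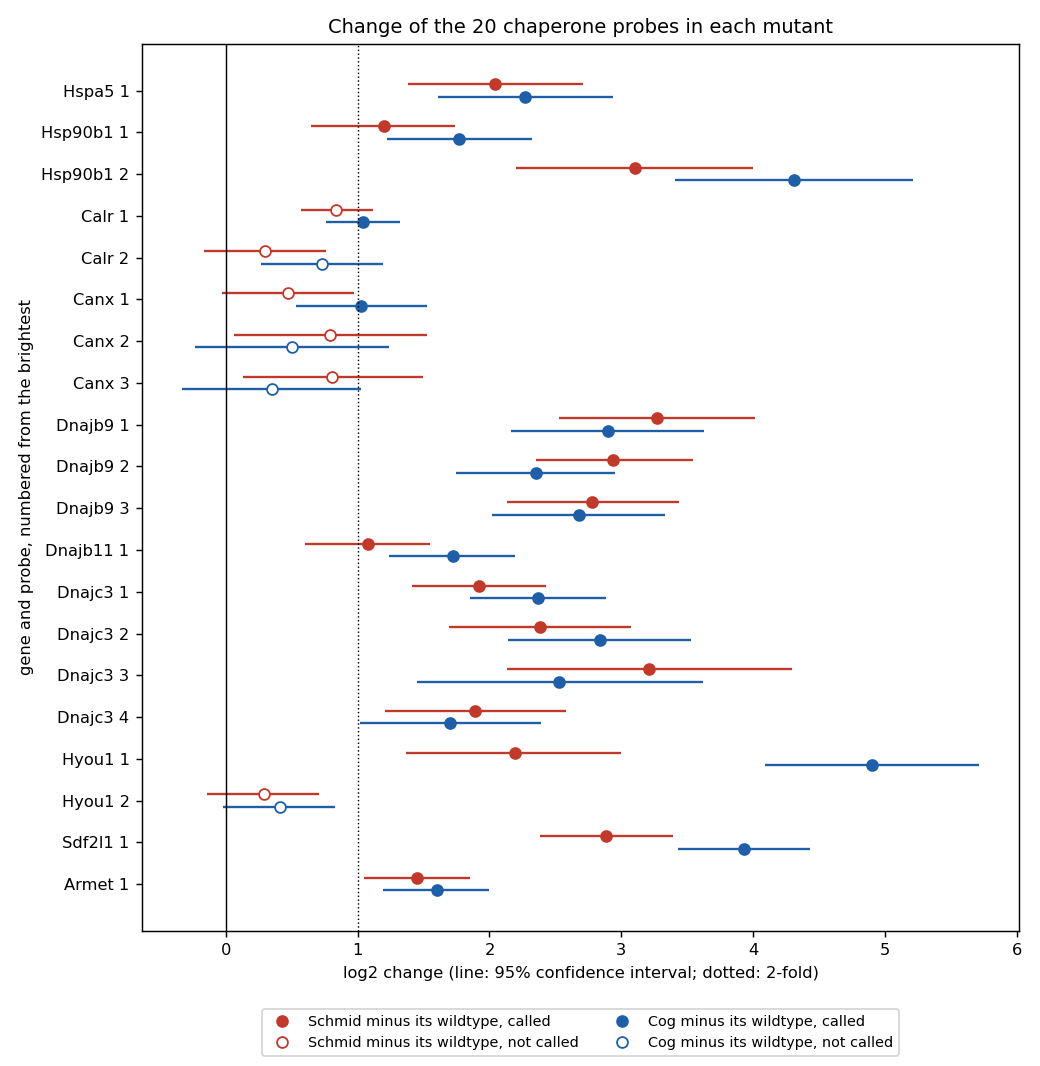
Log2 change against the mutant's own wildtype (horizontal axis) of the 20 probes, with 95% confidence intervals; filled points passed the test at 2-fold, open points did not, and the dotted line marks 2-fold. All 20 points lie above 0 in both mutants, between 0.29 and 3.27 for Schmid and between 0.35 and 4.90 for Cog.

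Whether the chaperones responded to the same extent in both mutants was asked by testing the difference of the changes. At 9 of the 10 brightest probes, and 13 of the 20 probes, the change was larger in Cog. The difference was called at 2 of the 20 probes, against 16.6% of all probes. For Hyou1 the Schmid change was smaller by 2.72 on the log2 scale (log2 difference -2.72, SE 0.52, 95% interval -3.86 to -1.57, adjusted p = 0.0071), and this held in all 21 other analyses (-3.02 to -2.19). For Sdf2l1 the difference of -1.05 (SE 0.32, 95% interval -1.76 to -0.33, adjusted p = 0.0497) lay at the threshold and was lost in 15 of 21 other analyses, the replicate block among them (adjusted p = 0.115). The next smallest p values were those of the dimmer Hsp90b1 probe (log2 difference -1.21, 95% interval -2.48 to 0.06) and Dnajb11 (-0.64, -1.31 to 0.03), both with an adjusted p of 0.17. For the remaining 16 probes the intervals included 0, the widest being that of the third brightest Dnajc3 probe (-0.85 to 2.21).

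Each change is taken from its own wildtype baseline, so the 2 wildtype groups were compared as well. No member probe differed between them by the test with the 2-fold limit, against 0.469% of all probes, and 3 of the 20 had an unadjusted p of 0.05 or less, against 14.1%. These 3 were the dimmer Hsp90b1 probe, higher in Schmid wildtype than in Cog wildtype by 1.79 on the log2 scale (15.37 against 13.58, adjusted p = 0.073), Hyou1 by 1.32 (13.03 against 11.71, adjusted p = 0.13) and Sdf2l1 by 0.86 (13.22 against 12.36, adjusted p = 0.11). At these 3 and at 2 others (the dimmer Calr and the brightest Dnajc3 probe), every Schmid wildtype array lay above every Cog wildtype array, 5 of 20 against 18.2% of all probes without overlap either way. The Hyou1 call in this comparison appeared when Schmid replicate 1 was left out, and the Hsp90b1 call when Cog replicate 3 was left out. For the 10 brightest probes the median difference between the wildtype groups was 0.06.

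**Figure D3:**
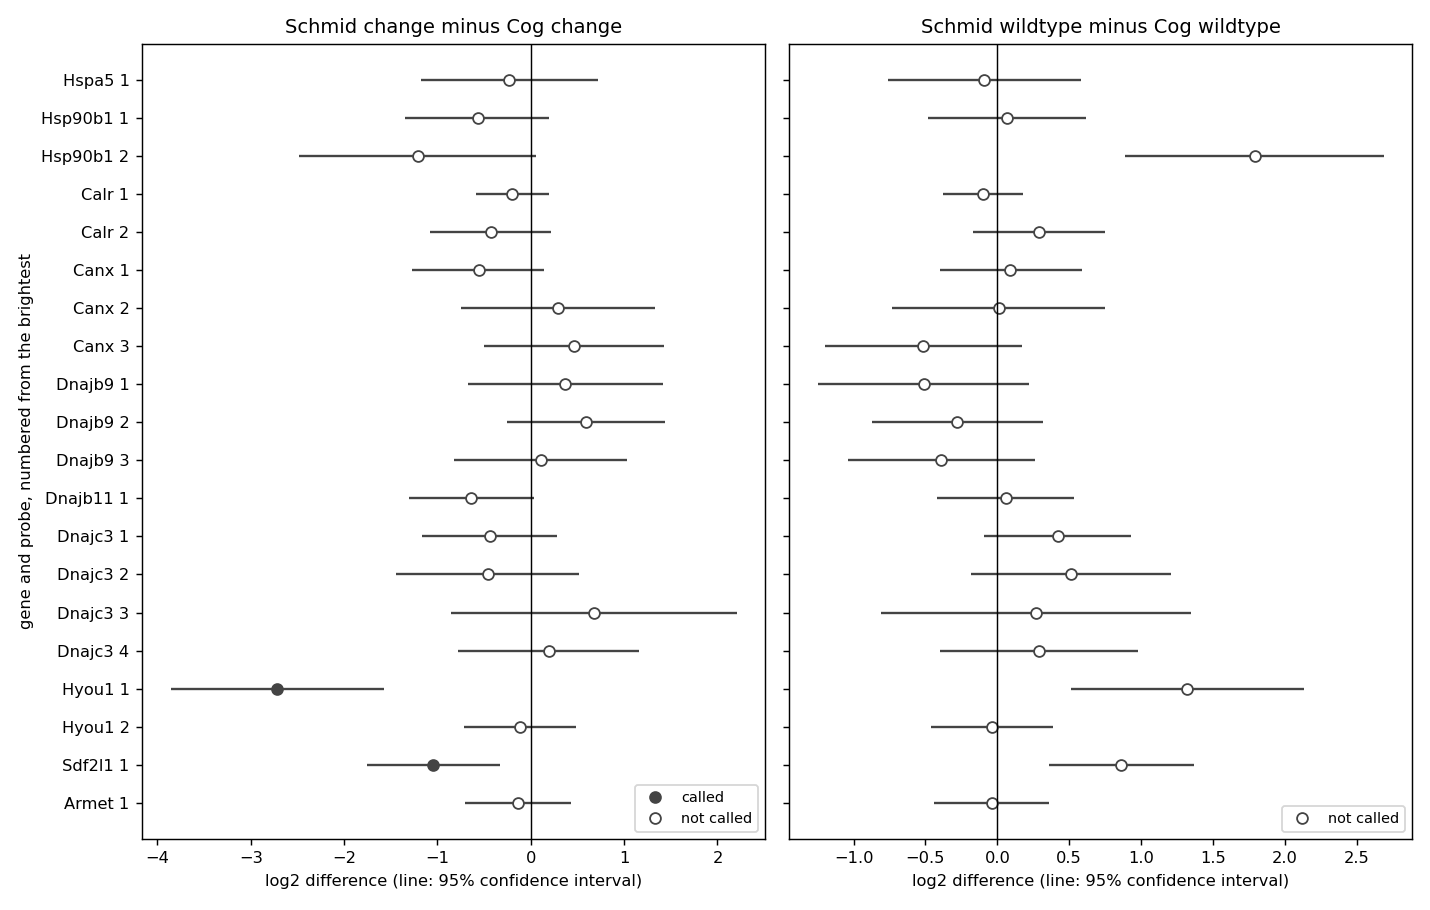
Left, the Schmid change minus the Cog change of each of the 20 probes; right, Schmid wildtype minus Cog wildtype; both on the log2 scale with 95% confidence intervals, filled where called. Hyou1 and Sdf2l1 are the called differences on the left (-2.72 and -1.05), and the same probes, with the dimmer Hsp90b1 probe, stand to the right of 0 among the wildtype differences.

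Within groups, single mice stood apart in some cases. Schmid wildtype replicate 2 had the lowest value of its group at 9 of the 10 genes, beside 27.2% of the 10425 gene names well above background on all arrays. Cog wildtype replicate 1 was the highest of its group at 6 genes and the lowest at 3 (39.9% and 44.6% of those gene names). Among Cog mice, replicate 2 was highest at 6 genes (28.2%) and replicate 3 lowest at 6 (37.8%). Among Schmid mice, replicates 1, 2 and 3 were highest at 3, 3 and 4 genes (37.3, 34.3 and 28.3%). They were lowest at 5, 3 and 2 genes (50.1, 27.7 and 22.3%). The median SD of the brightest probes within a group ran from 0.21 in Schmid to 0.29 in Cog wildtype. Each member was correlated over the 12 arrays with the mean profile of all 10, to which it contributes itself, with Pearson's r from 0.900 (Canx) to 0.984 (Hspa5). These arrays share the group differences, so the correlations are a description.

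Among 10425 other gene names well above background on all 12 arrays, the profile most like that of the members was that of an unnamed transcript (TC1515419, r = 0.990), 13.7-fold higher in Schmid and 25.2-fold higher in Cog. It was followed by Creld2 (r = 0.989), an ER protein with thioredoxin-like motifs, Herpud1 (r = 0.983), part of ER-associated degradation, Arfgap3 (r = 0.981), which acts in Golgi transport, and Mlstd2 (r = 0.977), a fatty acyl reductase of ether lipid synthesis. Their folds were 7.02 and 10.1 for Creld2, 4.27 and 5.72 for Herpud1, 1.86 and 2.51 for Arfgap3, and 2.94 and 4.74 for Mlstd2, in Schmid and Cog.

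Many transcription factors and degradation factors of the UPR, and some of its sensors, were higher beside the chaperones. Of 18 measured UPR regulators, 13 were higher in Schmid and 10 in Cog, against 5.8% and 1.89% of all gene names. None was lower, and the median log2 changes were 1.58 and 1.60. The largest in Schmid were Ddit3, which encodes the transcription factor Chop (22.5-fold, adjusted p = 8.7e-06), Derl3, a derlin of ER-associated degradation (19.3-fold, adjusted p = 2.4e-05), and Trib3 (7.83-fold, adjusted p = 7.9e-06). In Cog they were Derl3 (53.2-fold, adjusted p = 5.9e-06), Ddit3 (12.6-fold, adjusted p = 8.5e-05) and Herpud1 (5.72-fold, adjusted p = 2.6e-05). The sensor gene Atf6 was 2.99- and 5.53-fold higher, whereas Ern1, encoding Ire1, had folds of -1.09 and 1.38 and was not called. Its relative Atf6b, at -1.14 and 1.04, was not called either. Eif2ak3, encoding Perk, was called in Schmid (5.67-fold, adjusted p = 0.021) and not in Cog (2.31-fold, adjusted p = 0.32).

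Other folding genes of the ER were higher in part. The 27 measured included disulfide isomerases, glucosidases, prolyl isomerases and the collagen chaperone Serpinh1. Of these, 6 were higher in Schmid and 6 in Cog, against 5.8% and 1.89% of all gene names, and none was lower. In Schmid the largest were the disulfide isomerase Pdia4 (16-fold, adjusted p = 0.00074) and the oxidases Ero1lb (8.48-fold) and Ero1l (8.14-fold), which recharge the isomerases. In Cog they were Ero1lb (10.4-fold), Creld2 (10.1-fold) and Pdia4 (8.14-fold). The Ero1lb probe was well above background on 8 of the 12 arrays, so its folds rest in part on values near background. The difference between the mutants was called at 2 of the 27 genes, a share below the 17.7% of all gene names. They were Cnpy3 (log2 difference -0.72, adjusted p = 0.035) and Ero1l (2.46, SE 0.35, adjusted p = 0.0017). Ero1l was at 1.48-fold in Cog (adjusted p = 0.22). Serpinh1, by contrast, was at -1.32-fold in Schmid and 1.3-fold in Cog and was not called.

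Some relatives of the members outside the ER were called in Schmid, and most were not. Of 16 measured cytosolic and mitochondrial chaperones, 4 were higher and 1 was lower in Schmid, and none was called in Cog. Of all gene names, 5.8% were higher in Schmid and 1.89% in Cog, and none of 16 is near the latter share. The median log2 changes were 0.57 and -0.12. Hspa1a, the stress-inducible cytosolic chaperone, was 4.97-fold higher in Schmid (adjusted p = 0.0039), though its near-identical neighbour Hspa1b may share the probe. Hspa2 was 4.75-fold, the mitochondrial cochaperone Dnaja3 3.8-fold and the exchange factor Hspa4 3.61-fold higher, and Dnajb5 was lower (fold of -2.26, adjusted p = 0.0016). The difference between the mutants passed the test at 7 of the 16 genes, against 17.7% of all gene names at their brightest probe. Those 7 were the 5 called in Schmid, and Hsp90ab1 (log2 difference 1.44, adjusted p = 0.017) and Dnaja2 (adjusted p = 0.029), which were not called in either mutant. On the log2 scale the difference was 2.20 for Hspa1a (adjusted p = 0.032), 1.86 for Hspa2 (0.0089), 2.01 for Hspa4 (0.012), 1.50 for Dnaja3 (0.036) and -1.41 for Dnajb5 (0.0053). The constitutive cytosolic chaperone Hspa8, at 1.1- and 1.09-fold, was not called in either mutant.

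**Figure D4:**
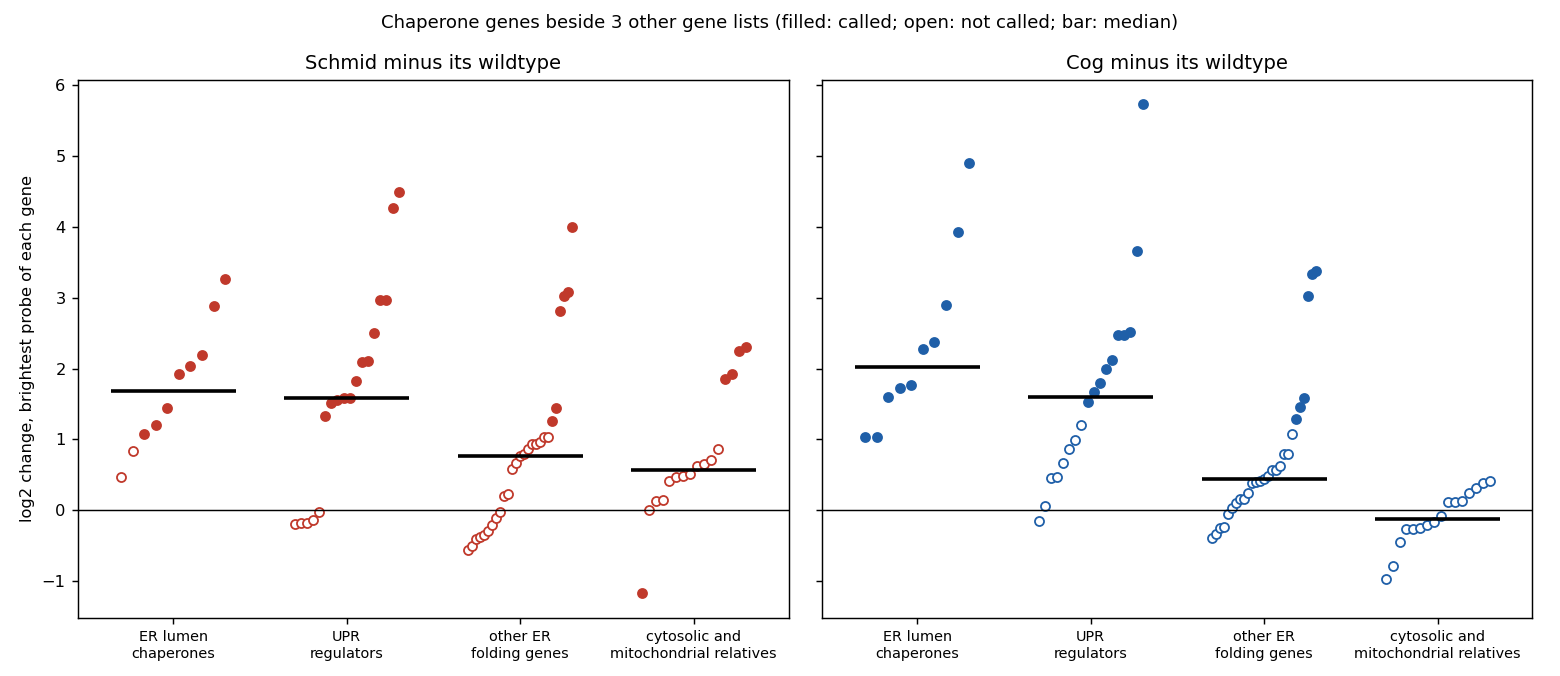
Log2 change of the brightest probe of each gene (vertical axis) in Schmid (left) and Cog (right) for the 10 chaperone genes and 3 other gene lists; filled points were called and bars are medians. The cytosolic and mitochondrial relatives centre on 0.57 in Schmid and -0.12 in Cog, below the medians of 1.69 and 2.02 of the chaperones.

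The summed levels of all 7 marker lists were lower on all 3 Schmid arrays than on all 3 Schmid wildtype arrays. The summed level of 9 red cell and marrow markers was 14.74 to 16.62 in Schmid against 17.97 to 20.32 in Schmid wildtype, with 3 of 9 genes called lower, and 17.18 to 18.36 in Cog against 17.29 to 18.26 in Cog wildtype, with none called. The 6 endothelial markers summed to 12.49 to 13.01 against 14.22 to 14.97 in the Schmid background (3 called lower) and 13.51 to 14.31 against 14.56 to 14.90 in the Cog background (none called). The 9 hypertrophic chondrocyte markers summed to 18.94 to 19.27 against 19.57 to 20.38 (3 called lower) and 19.82 to 20.05 against 19.96 to 20.61 (1 called lower). The general chondrocyte markers summed to 20.99 to 21.42 over all 12 arrays, with none of 8 genes called in either mutant. This list shows cartilage and does not tell the hypertrophic zone from other zones.

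Among proliferating cell, osteoclast and osteoblast markers, 2 of 7, 1 of 6 and 1 of 5 genes were called lower in Schmid. The share of all gene names called lower was not computed. The counts of markers called lower in the 7 lists therefore cannot be set against it. The 7 proliferating cell markers summed to 13.19 to 13.60 against 14.84 to 15.90 in the Schmid background and 14.29 to 15.14 against 14.52 to 15.45 in the Cog background. In such bulk samples fewer cells of a type and less RNA per cell cannot be told apart. The part of these shifts in the chaperone changes was not tested.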

How the data were processed

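The authors deposited, for each of 12 arrays, the scanner output of Agilent Feature Extraction 9.5.3 with the intensity of each spot, not normalized between arrays, and a series matrix of log2 values after normexp correction and quantile normalization, used here as an alternative. As in the study's methods, intensities were corrected with normexp (offset 50) and quantile normalized, control spots were removed and the spots of a probe averaged (R 4.3.3, limma 3.58.1). Mean signal with local background was used, and spots marked as outliers were left out, which are choices made here. The 4 group means of all 12 arrays were estimated in 1 limma fit, and p values were adjusted by Benjamini-Hochberg over 41174 probes. A change was called at 2-fold or more with an adjusted p of up to 0.05, and a difference of changes at the adjusted p alone. Negative folds are folds below wildtype. Intervals are 95% confidence intervals. The number of arrays limits the precision.

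Genes named were the 10 members with all probes, the 3 largest called changes each way of each other list, and the 5 most similar profiles; others were named after their values were seen. The members and lists were chosen with earlier results of these data known. Alternatives changed the signal, scaling, test, blocks, weights and filter, and left out each array in turn. Gene names are those of the array annotation, and probes were not aligned again.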

Additional observations from a re-analysis of the deposited data

Results flagged for a closer look

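The change differed between the mutants at 2 of the 20 chaperone probes by the test of the difference itself (limma, all 12 arrays). For the brightest Hyou1 probe the Schmid change minus the Cog change was -2.72 on the log2 scale, and each of the 3 Cog arrays stood further above its wildtype than any Schmid array did. For Sdf2l1 it was -1.05, with the mutant groups at 16.10 and 16.29 and the wildtype groups at 13.22 and 12.36. Slide and genotype cannot be told apart in either. Groups of 3 arrays were not tested for single outlying arrays.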

How the results depend on the processing

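All 20 chaperone probes of the members kept their direction in Cog under each of the 23 alternatives. In Schmid all but 2 did: the brightest Canx probe came to -0.00 with the processed signal set to a common 75th percentile, and the dimmer Hyou1 probe to -0.17 with normexp values set to that percentile. The cause was not tested. Of 962 values recomputed for single probes, 885 kept direction and side of the threshold and 70 lost the call. Another 5 gained it, 2 of them the dimmer Hyou1 probe in Schmid with the processed signal. The 2 that turned direction were called neither in the main fit nor at the setting that turned them. The count of member probes higher in Schmid stayed between 13 and 15, except under treat, limma's test of a change beyond 2-fold. By construction treat asks for more, and it left 5. In Cog that test left 3 of 16 (all 3 at Hsp90b1, Hyou1 and Sdf2l1), and the processed signal at the 75th percentile left 10; other counts ran from 12 to 16.

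The difference between mutants was called at 1 probe, Hyou1, with the processed signal or normexp values at the 75th percentile, the deposited series matrix, the replicate block and the filter on dim probes, and at 4 with array weights. Leaving out single arrays gave 1 to 4, with 4 (Hyou1, the brighter Hsp90b1 probe, Canx and Dnajb11) without Cog wildtype replicate 1. Between the wildtype groups 1 probe was called with slide as a random block, 2 with array weights, and 0 to 1 when single arrays were left out.

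To ask whether replicate numbers go together, the mean of its group was subtracted from each value. The remainders of arrays with the same number correlated by 0.193, 0.171 and 0.066 over all probes between Schmid and its wildtype. Over probes well above background on all arrays these were 0.307, 0.283 and 0.117. Between Cog and its wildtype the correlations were -0.116, 0.072 and -0.106 over all probes and -0.209, 0.153 and -0.201 over those above background. Between the 2 wildtype groups they were 0.406, 0.047 and 0.19, and 0.505, 0.115 and 0.274. The study's methods call the wildtype mice littermates of the mutants. The labels do not say which mice shared a litter or day, so the numbers were not taken to pair the mice. With the replicate block 14 member probes were called in Schmid, 15 in Cog, 1 for the difference and 0 between the wildtype groups.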
